A study of Mus musculus with 2 samples.

Results

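The killer lectin-like receptors are C-type lectin-like proteins of the cell surface, encoded side by side in the natural killer gene complex. All genes whose symbols begin with Klra, Klrb, Klrc, Klrd, Klre, Klrg, Klrh, Klri or Klrk were taken, which gave 26 of the 31053 genes measured. Of these, 11 were Klra genes, 5 Klrb genes and 3 Klrc genes, and no Klrh gene was present. They were followed in 2 single-cell libraries of lung resident immune cells, each a single 10x 3′ library. Both came from adult mice of the genotype Gli1creERT/Hhipflo/flox, so the control animals carried the inducible Cre and the floxed Hhip alleles too. One group was injected with oil and the other with tamoxifen, which activates the Cre. Sorted cells were live (DAPI-negative), CD45-positive and not reached by a CD45 antibody given intravenously before death. The Cre is driven from Gli1, a gene of Hedgehog-responsive mesenchymal cells, so the deletion is aimed at cells other than those measured. The labels do not state how many animals were pooled, nor their age in weeks, sex or strain.

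As background, natural killer (NK) cells and many tissue T cells read the surface of their neighbours through these receptors. Inhibitory members carry a tail that recruits phosphatases, whereas activating members pair with the adaptors Tyrobp (DAP12) or Hcst (DAP10). The Klra genes encode the Ly49 receptors of rodents, most of which bind classical MHC class I, and each NK cell switches on its own mixture of them. Klrd1 (CD94) pairs with a Klrc (NKG2) chain and reads Qa-1, Klrk1 (NKG2D) reads stress-induced ligands, Klrb1 (NKR-P1) receptors read Clec2 proteins, and Klrg1 reads cadherins.

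The oil library held 57704412 UMIs (unique molecular identifiers, each standing for 1 captured transcript) in 10342 barcodes, and the tamoxifen library 83730550 in 12980. After barcodes with fewer than 300 genes or at least 10% mitochondrial UMIs were left out, 6794 (65.7%) and 10138 (78.1%) remained, with median depths of 6360.5 and 6431 UMIs. The mitochondrial limit alone was passed by 31.9% of oil and 20.7% of tamoxifen barcodes. Ptprc (CD45) was detected in 83.1% and 85.6% of the remaining cells. Hhip gave 40 and 29 UMIs and Gli1 gave 9 in each library, so neither could check the deletion in sorted immune cells. The libraries shared 41 barcodes, 18 of them among the remaining cells. Cells with female-specific and with male-specific transcripts occurred in both, 3714 and 1413 in oil against 6156 and 1679 in tamoxifen. Each group had a single library, so nothing could be tested across replicates. Every interval below is a 95% interval that covers counting error only. All are exact except those of ratios between shares of cells, which are approximate.

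Cells were sorted into gates by a few transcripts each. The Ncr1 gate took cells with a UMI of Ncr1 and none of Cd3d, Cd3e or Cd3g, and held 139 oil and 56 tamoxifen cells, 2.05% and 0.552% of the remaining cells. Its NK markers Gzma (1129 and 519 CPM, the UMIs of a gene scaled to a total of 1000000 in the gate) and Eomes (103 and 57.7 CPM) and its ILC1 marker Cxcr6 (190 and 141 CPM) were present. T-cell receptor constant transcripts were nevertheless found in 111 and 44 of these cells, so the gate is named here by its rule. The T gates took cells with a Cd3 UMI and divided them by Cd4 (432 and 668 cells), Cd8b1 (221 and 406), Trdc (273 and 385) or none of these (2072 and 3513). The Il1rl1 gate (no Cd3, at least 1 Il1rl1 UMI, 730 and 323 cells) was aimed at group 2 innate lymphoid cells, but Gata3 was detected in only 29.0% and 19.5% of it. In oil 452 and in tamoxifen 211 of its cells lay inside the cDC2 gate as well, and its level of the dendritic-cell gene Mgl2 was 1574 and 1323 CPM, so it too is called by its rule. Dendritic-cell gates were cDC1 (Xcr1 and Clec9a, 444 and 530 cells) and cDC2 (Mgl2 and Cd209a, 1575 and 1231), and macrophage gates were alveolar (247 and 1632) and interstitial (821 and 789). Of the cDC1 cells, 226 in oil and 254 in tamoxifen lay in the cDC2 gate as well, so cDC1 and cDC2 values below do not come from separate cells. A B-cell gate of 186 and 337 cells served as the reference for free RNA. It was not free of mixed barcodes: 1 and 17 of its cells lay in the alveolar gate as well. Another 13 and 22 overlaps were with cDC2, 6 and 5 with cDC1, and 10 and 8 with the Il1rl1 gate.

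All 26 genes lie on chromosome 6, and 24 of them within chr6:128609227-131247362 (GRCm38), a stretch of 2.64 Mb. The pair outside it is Klrg2 (chr6:38625693-38637242) and Klrg1 (chr6:122270596-122282882). In this description 22 members had at least 20 UMIs over both libraries in at least 1 gate. The other 4 stayed below: Klrb1 with at most 13 UMIs in any gate, Klra6 with 9, Klrc3 with 6 and Klra10 with 1. UMIs of a 3′ library are not divided by transcript length, so levels below compare 1 gene between gates or libraries, never one gene with another.

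Each member had a home among the gates, and the map was the same in both libraries for most of them. The Ncr1 gate was the highest of the gates for Klrk1, Klrb1a, Klrb1b, Klrb1c, Klrb1f, Klrc1, Klrc2, Klrd1, Klre1, Klri2, Klra3, Klra4, Klra5, Klra7, Klra8 and Klra9 in both. Klra5 there rested on 11 and 3 UMIs from 3 cells and 1 cell, and in tamoxifen its level in the Trdc T gate was the same to 2 digits (6.92 and 6.91 CPM). Klrg2 was highest in cDC1, Klri1 and Klra17 in the Il1rl1 gate, Klra2 in alveolar macrophages and Klra1 in the Trdc T gate. Klrg1 was highest in Cd4 T cells in oil, and in tamoxifen in the few T cells that carried several of the dividing transcripts, followed by Cd4 T cells. The whole family summed to 3393 CPM in the oil Ncr1 gate and 2499.8 in the tamoxifen one. It summed to 31.3 and 48.4 CPM in B cells.

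**Figure D1:**
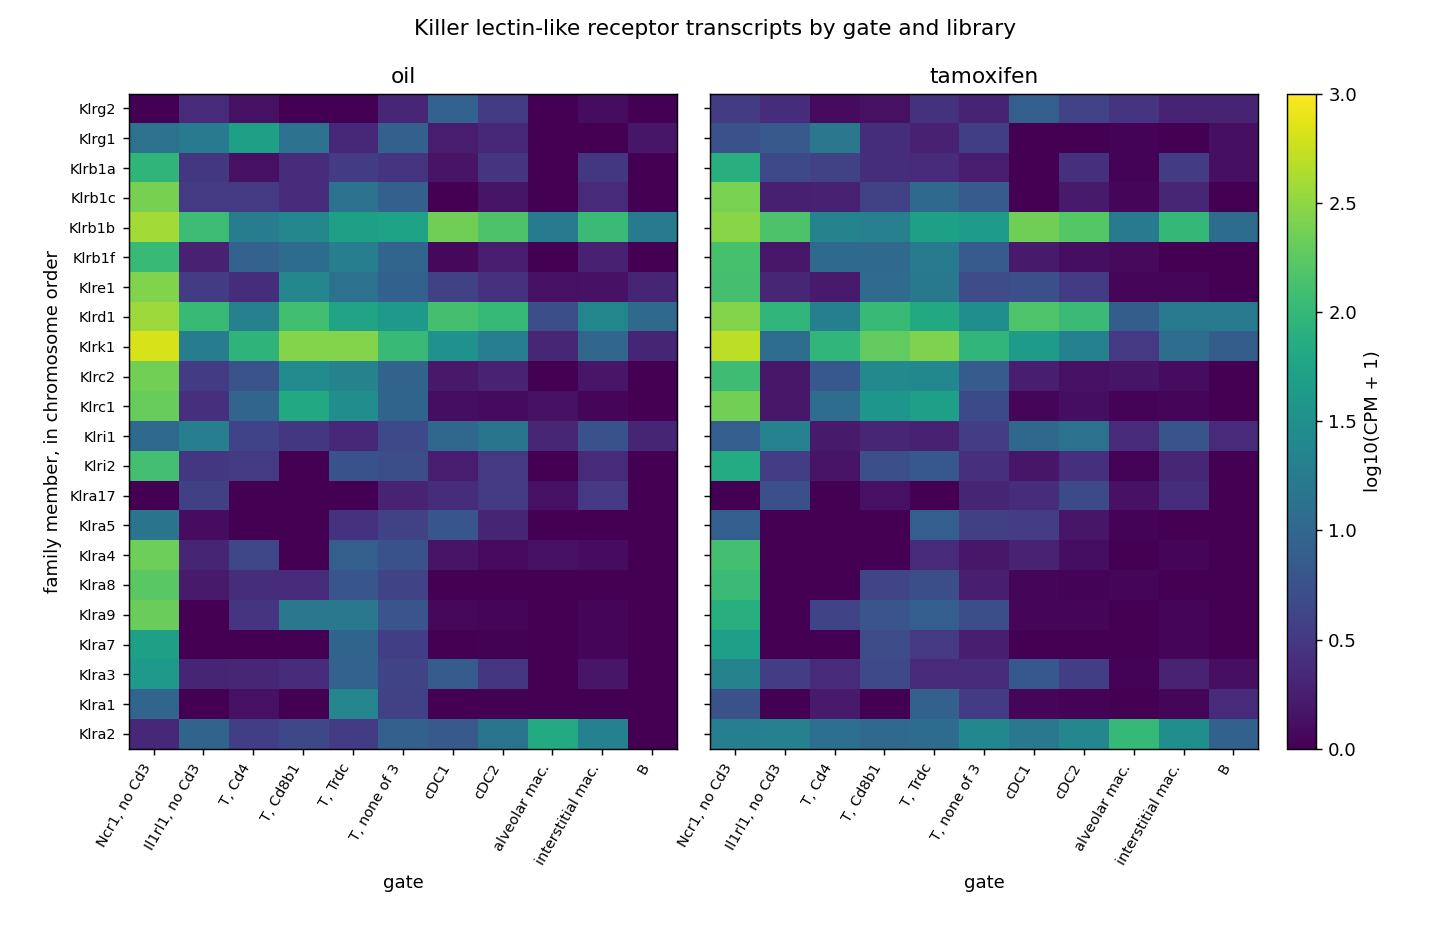
Level of each described member (one line each) in each gate (columns) of the oil and tamoxifen libraries, as log10(CPM + 1), with brighter colour for a higher level. The Ncr1 gate is the brightest for most members, whereas Klra2 is brightest in alveolar macrophages (66.7 CPM in oil, 101 in tamoxifen) and Klrg1 in the oil Cd4 T gate (50.1 CPM).

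In the Ncr1 gate the members ranged without a gap from a slightly higher to a more than 2-fold lower level in the tamoxifen library. Of 26 members, 15 had at least 20 UMIs there. Klre1 and Klra9 were more than 2-fold lower in tamoxifen and no member was more than 2-fold higher, while 5.96% of the 5940 genes with at least 20 UMIs in this gate were that much lower and 5.25% that much higher. The members' median log2 ratio of tamoxifen over oil was -0.40, beside -0.03 for all those genes. The NK marker list (8 genes) summed to 3367 CPM in oil and 2050 in tamoxifen, and the ILC1 list (6 genes) to 1094 and 853, with all markers of both lists above 0. The 6 alveolar macrophage markers summed to 52.1 CPM (2 of them at 0) and 835 CPM (none at 0). Their part in these ratios was not tested.

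Among activating receptors and their partners, Klrk1 had 539 UMIs in 126 of 139 oil cells and 218 in 45 of 56 tamoxifen cells. This amounted to 653 and 503 CPM, a log2 ratio of -0.38 (-0.61 to -0.15). After every cell was thinned to 1500 UMIs, which left out 12 oil and 2 tamoxifen cells, Klrk1 transcripts remained in 66.1% of oil cells and 68.5% of those from tamoxifen. In B cells treated alike they remained in 0 of 182, which allows up to 1.65%, and in 0.601% (medians 4758 and 5111.5 UMIs in the Ncr1 gate, 7203.5 and 6556 in B cells). The share of Ncr1-gate cells with a Klrk1 transcript thus differed little, while its summed level was lower in tamoxifen. Klrb1c, the activating NKR-P1C receptor by which mouse NK cells are often stained, had 201 and 108 UMIs, or 244 and 249 CPM (log2 ratio 0.03, -0.32 to 0.38).

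The CD94 receptors divided in their summed levels. Klrd1 itself gave 297 and 119 UMIs, 359.9 and 274 CPM, a log2 ratio of -0.39 (-0.71 to -0.08). Klrc2, the activating NKG2C chain, was at 229 CPM in oil (189 UMIs in 77 cells) and 115 CPM in tamoxifen (50 UMIs in 23 cells), a log2 ratio of -0.99 (-1.47 to -0.53). Klrc1, the inhibitory NKG2A chain, was at 199.9 CPM (165 UMIs in 57 cells) and 231 CPM (100 UMIs in 29 cells), a ratio of 0.21 (-0.17 to 0.57). The intervals of the activating and the inhibitory chain did not overlap, although the difference between them was not tested. These intervals treat the UMIs of 1 cell as independent and are therefore too narrow. With cells thinned to 1000 UMIs, the share ratio was -0.64 (-1.66 to 0.39) for Klrc2 and 0.46 (-0.30 to 1.21) for Klrc1. Both included equality. Klrd1 transcripts were found in 92 oil and 36 tamoxifen cells, of which 60 and 16 also held a Klrc2 transcript.

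Klre1 and the Klri chains form heterodimers on NK cells, Klri1 being the inhibitory and Klri2 the activating partner. Klre1 had 221 UMIs in 58 oil cells and 56 UMIs in 20 tamoxifen cells, 268 against 129 CPM, a log2 ratio of -1.05 (-1.50 to -0.62). The thinned shares of cells with it were 22.0% and 20.4%, a ratio of -0.11 (-1.01 to 0.78), and by sex the ratio of the levels was -2.18 in female and -0.48 (-1.34 to 0.32) in male cells. Klri2 had 103 and 30 UMIs, 125 and 69.2 CPM, a ratio of -0.85 (-1.49 to -0.25). The 2 genes met in the same cells: Klri2 was found in 26 of 58 oil cells with Klre1 (44.8%) and in 19.8% of the cells without it, and in tamoxifen in 8 of 20 (40.0%) against 22.2%. These shares are not adjusted for the depth of the cells.

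Of the remaining NKR-P1 receptors, the inhibitory Klrb1b was at 387 and 293 CPM (319 and 127 UMIs, log2 ratio -0.40, -0.71 to -0.10). Klrb1f was at 108 and 131 CPM (89 and 57 UMIs, 0.29, -0.22 to 0.78) and Klrb1a at 90.9 and 76.1 CPM (75 and 33 UMIs, -0.26, -0.89 to 0.35). The intervals of Klrb1f and Klrb1a included equality. Klrg1, elsewhere a marker of mature NK cells, was nearly missing from the gate, with 10 UMIs in oil and 2 in tamoxifen.

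**Figure D2:**
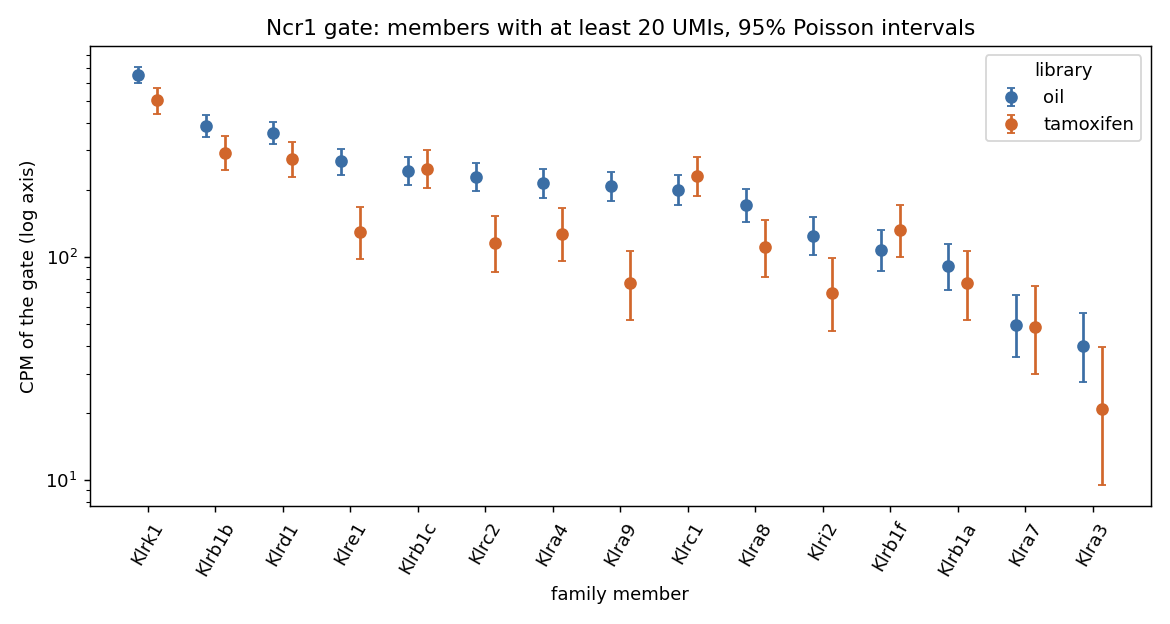
Level (CPM of the gate, log axis) of the 15 members with at least 20 UMIs in the Ncr1 gate, for the oil and tamoxifen libraries, with exact 95% Poisson intervals that cover counting error only. Klre1 (268 and 129 CPM), Klrc2 (229 and 115) and Klra9 (207 and 76.1) show the widest gaps with tamoxifen below, while Klrb1c (244 and 249) lies level.

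The Ly49 genes were summed next, because each cell uses its own subset. The 11 Klra genes gave 582 UMIs in the oil Ncr1 gate (705 CPM) and 179 in the tamoxifen gate (413 CPM), a log2 ratio of -0.77 (-1.02 to -0.53). They came from 52 of 139 cells (37.4%, 29.4 to 46.0) in oil and from 19 of 56 (33.9%, 21.8 to 47.8) in tamoxifen. At 1500 UMIs per cell the shares were 27.6% (35 of 127) and 20.4% (11 of 54), a log2 ratio of -0.44 (-1.30 to 0.43) that included equality. In the thinned B cells 0 of 182 oil cells had a Klra transcript, which allows up to 1.65%, and 1.20% of tamoxifen cells did. At least 3 different Klra genes were seen in 18 oil and 4 tamoxifen cells, with at most 5 and 4 genes in a cell. Those 18 cells held 339 of the 582 UMIs, and those 4 cells held 85 of the 179. The summed Ly49 level thus rested on few cells in both libraries.

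The activating Klra4 (Ly49D) gave 177 UMIs in 23 oil cells and 55 UMIs in 5 tamoxifen cells, 214 and 127 CPM, a log2 ratio of -0.76 (-1.22 to -0.31). Klra8 (Ly49H), also activating and known for its recognition of a cytomegalovirus protein, gave 141 UMIs in 26 cells and 48 in 6 cells, 171 and 111 CPM (-0.63, -1.13 to -0.14). These intervals treat the UMIs of 1 cell as independent and are therefore too narrow. Klra8 was found in 16 of the 23 oil cells with Klra4 (69.6%) and in 8.62% of those without it. In tamoxifen it was found in 4 of 5 (80.0%) and in 3.92% of the others. The activating pair was thus found together in most Klra4-bearing cells of each library, shares that are not adjusted for depth or for shared 3′ sequence.

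Among inhibitory Ly49 genes, Klra9 (Ly49I) had 171 UMIs in 33 oil cells and 33 in 8 tamoxifen cells, 207 against 76.1 CPM, a ratio of -1.45 (-2.03 to -0.90). By transcripts of the sex chromosomes, the female cells held 86 and 0 of these UMIs and the male cells 32 and 17, with a ratio of 0.14 in male cells, so the difference did not hold in both. Klra7 (Ly49G) was at 49.7 and 48.4 CPM (41 UMIs in 13 cells, 21 in 3) and Klra3 (Ly49C) at 40.0 and 20.8 CPM (33 UMIs in 11 cells, 9 in 4), both with intervals that included equality.

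Within the Ncr1 gate, cells were divided by markers that none of the members supplied. Cells with an Eomes, S1pr5 or Itgam transcript and none of Cxcr6 or Itga1 are called NK-marked, and those with the reverse ILC1-marked. The NK-marked cells numbered 27 in oil and 5 in tamoxifen, the ILC1-marked 66 and 27, and cells on neither side 46 and 24. Cells on neither side had markers of both kinds or of none. Klra transcripts were found in 23 of the 27 NK-marked oil cells (85.2%, 66.3 to 95.8) and 4 of the 5 in tamoxifen (80.0%, 28.4 to 99.5). On the ILC1-marked side they were found in 16 of 66 (24.2%) and 6 of 27 (22.2%), and no such cell held 3 Klra genes. Cells on neither side had them in 13 of 46 (28.3%) and 9 of 24 (37.5%). In oil, 366 of the 582 Klra UMIs came from the NK-marked side, and in tamoxifen 80 of the 179. The share of Klra-bearing cells on each side was close between libraries, with wide intervals, while NK-marked cells were a smaller part of the tamoxifen gate.

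The other receptors lay on both sides. Klrk1 on the ILC1-marked side was at 607 CPM in oil and 673 in tamoxifen, a log2 ratio of 0.15, and Klrc1 there was at 252 and 301 CPM. Klre1 was at 718 and 292 CPM among NK-marked cells (112 and 16 UMIs) and at 82.6 and 91.8 CPM among ILC1-marked cells (38 and 18 UMIs). Among cells on neither side Klrk1 was at 740 and 383 CPM (155 and 70 UMIs, -0.95, -1.38 to -0.53) and Klre1 at 339 and 120 CPM (71 and 22 UMIs, -1.49, -2.26 to -0.79). The levels of Klrk1 and Klre1 were thus lower in tamoxifen among cells on neither side. Klre1 was also lower among NK-marked cells, whose values rest on 5 tamoxifen cells. Cells with transcripts of another lineage made up 4.35% and 25% on neither side, 7.41% and 20% of NK-marked and 7.58% and 11.1% of ILC1-marked cells. The cDC2 markers summed to 66.9 and 1149, 218 and 804, and 872 and 413 CPM in that order. The part of this foreign RNA in the ratios was not tested.

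**Figure D3:**
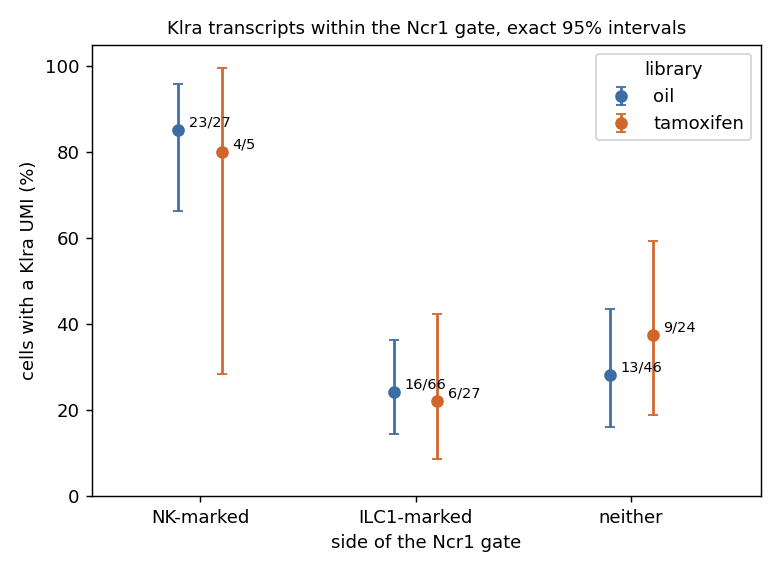
Share of Ncr1-gate cells with a Klra transcript, in percent, for NK-marked cells, ILC1-marked cells and cells on neither side (markers of both kinds or of none), in each library. Bars are exact 95% intervals and the numbers of cells stand beside the points. NK-marked cells lie at 85.2% and 80.0%, ILC1-marked cells at 24.2% and 22.2%, and the 5 tamoxifen NK-marked cells leave an interval from 28.4% to 99.5%.

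The promoters of the Ly49 genes are shown for Klra4, Klra8 and Klra9, the Klra genes with most UMIs in the Ncr1 gate, and for Klra2, whose transcripts lay in macrophages. RefSeq gives them on GRCm38.p6, all on the minus strand, from 250 bases before to 50 after the gene start: Klra4 at chr6:130067222-130067521, Klra8 at chr6:130129849-130130148, Klra9 at chr6:130193063-130193362 and Klra2 at chr6:131247313-131247612. Capitals mark a run of 17 bases that the first 3 share, AAGCAATTTCCTCTTTT. In Klra2 only the 15-base part GCAATTTCCTCTTTT is present, written there in lower case.
Klra4: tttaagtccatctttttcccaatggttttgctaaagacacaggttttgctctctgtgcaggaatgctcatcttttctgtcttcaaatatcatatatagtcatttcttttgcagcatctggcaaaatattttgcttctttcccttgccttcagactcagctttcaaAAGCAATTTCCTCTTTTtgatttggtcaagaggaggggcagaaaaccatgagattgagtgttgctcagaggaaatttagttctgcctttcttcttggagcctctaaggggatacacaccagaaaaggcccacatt
Klra8: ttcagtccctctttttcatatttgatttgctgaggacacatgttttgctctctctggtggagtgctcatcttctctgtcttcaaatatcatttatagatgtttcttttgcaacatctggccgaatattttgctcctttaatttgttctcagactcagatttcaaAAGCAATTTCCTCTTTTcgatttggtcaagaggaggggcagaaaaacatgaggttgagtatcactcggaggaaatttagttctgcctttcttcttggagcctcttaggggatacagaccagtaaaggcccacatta
Klra9: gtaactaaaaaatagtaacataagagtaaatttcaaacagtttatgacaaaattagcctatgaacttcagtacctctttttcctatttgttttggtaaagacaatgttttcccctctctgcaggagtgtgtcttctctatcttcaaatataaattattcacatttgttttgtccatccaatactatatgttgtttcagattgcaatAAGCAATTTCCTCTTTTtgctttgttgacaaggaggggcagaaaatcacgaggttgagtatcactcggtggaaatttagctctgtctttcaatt
Klra2: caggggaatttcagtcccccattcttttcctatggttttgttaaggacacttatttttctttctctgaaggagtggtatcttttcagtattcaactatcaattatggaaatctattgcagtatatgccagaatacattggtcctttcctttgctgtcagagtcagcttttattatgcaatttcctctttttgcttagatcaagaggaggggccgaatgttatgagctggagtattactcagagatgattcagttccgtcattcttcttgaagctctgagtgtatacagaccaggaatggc
The run was found, on either strand, in 8 of 32851 promoters of the same length (0.0244%). Of 23 members searched it was in 6, all Klra genes (Klra17, Klra6, Klra4, Klra8, Klra9 and Klra3). The run was chosen as the longest that Klra4, Klra8 and Klra9 share, so their matches were fixed in advance in both counts. Klra4 and Klra8 were identical at 86.0% of aligned positions, Klra4 and Klra2 at 71.6%, and Klra8 and Klra2 at 70.7%. Klra9 lay lower against each of them, at 52.6% with Klra4, 54.2% with Klra8 and 53.1% with Klra2. These identities cover whole windows, with unmatched ends counted. The shared run began at base 166 in Klra4, 165 in Klra8 and 207 in Klra9, so the Klra9 window is offset. The part of this offset in its lower identity was not tested. A Runx-type motif (TGTGGT, either strand) was in 8 of the 23 members (Klrb1a, Klrb1c, Klre1, Klrk1, Klrc3, Klrc2, Klrc1 and Klra1) and in 16.8% of all promoters. A T-box motif (AGGTGTGA) was in 0 members and 1.28% of all promoters, and a PU.1 motif (GAGGAAGT) in 0 members and 3.20%. These are matches of letters in this window and describe no binding.

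In Cd8b1 T cells Klrk1 and Klrc1 were lower in tamoxifen, while Klrd1 was near equal. In the Cd8b1 gate 10 members had at least 20 UMIs. Klrg1, Klre1 and Klra9 were more than 2-fold lower in tamoxifen, where 1.78% of all genes with that many UMIs were, and Klra2 was more than 2-fold higher, where 6.21% were. The members' median was -0.43, beside 0.03 for all genes. Klrk1, a co-stimulator of CD8 T cells, was at 274 CPM in oil (394 UMIs in 110 of 221 cells) and 189 in tamoxifen (516 UMIs in 176 of 406 cells), with the log2 ratio at -0.54 (-0.73 to -0.34). Thinned cells held it in 30.9% and 20.1%. Klrc1 was at 64.6 CPM (93 UMIs in 44 cells) and 36.2 CPM (99 UMIs in 46 cells), a ratio of -0.84 (-1.26 to -0.41). Both levels were lower in tamoxifen, with intervals clear of 0.

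Klrd1 in the Cd8b1 gate was at 122 and 104.9 CPM (176 and 287 UMIs, -0.22, -0.50 to 0.06) and Klrc2 at 27.1 and 24.5 CPM (-0.15), so the CD94 chain and its activating partner were near equal. Klrc1 was found in 31 of 67 oil cells with Klrd1 (46.3%) and in 8.44% of the others, and in tamoxifen in 21 of 111 (18.9%) and 8.47%. Klre1 had 34 and 28 UMIs in this gate, a ratio of -1.21 (-1.98 to -0.44). Klra9 rested on 3 cells in each library, with 21 and 14 UMIs.

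Gamma-delta T cells, marked here by Trdc, went another way for Klrc1. In this gate 12 members had at least 20 UMIs. Klra9 and Klra1 were more than 2-fold lower in tamoxifen (1.76% of all genes) and Klra2 more than 2-fold higher (4.58%), and the members' median was 0.09, beside 0.06 for all genes. Klrc1 was at 28.3 CPM (48 UMIs) in oil and at 48.4 CPM (112 UMIs) in tamoxifen, a log2 ratio of 0.77 (0.27 to 1.29). Klrk1 was at 273 and 259 CPM (463 and 599 UMIs, -0.08), Klrb1b at 50.2 and 49.6 CPM and Klrd1 at 54.9 and 66.1 CPM, all close to equal. Klra1 (Ly49A), highest in this gate, had 38 UMIs in 10 oil cells and 17 in 6 tamoxifen cells, a ratio of -1.61 (-2.53 to -0.75).

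The Trdc gate mixed cells of different kinds. Of its 934 oil and 1251 tamoxifen UMIs of the family, 308 and 95 lay in 14 and 4 cells with an Ncr1 transcript. The part of those cells in the values below was not tested. Cells with a Cd163l1 or Il17a transcript (182 and 245), as interleukin-17-producing gamma-delta cells have, held the family at 324 and 333 CPM. Cells with neither (91 and 140) held it at 965 and 888 CPM. The Klrc1 difference lay in the latter, at 63.2 CPM (38 UMIs) in oil and 114 CPM (99 UMIs) in tamoxifen (0.86, 0.30 to 1.44). It was 1.86 in female and 0.08 in male cells of the whole gate, so it did not hold in both. The summed Klra level of the cells with neither transcript was 185 and 98.3 CPM, a ratio of -0.91.

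The T gate with none of Cd4, Cd8b1 or Trdc was the largest, and 22 members had at least 20 UMIs there. Klrg1, Klrb1a, Klrc1, Klri2, Klra4, Klra8, Klra7 and Klra3 were more than 2-fold lower in tamoxifen, 8 of 22 where 3.19% of all 13324 genes measured were. Klra2 was the 1 member more than 2-fold higher, where 4.41% were. The members' median was -0.43, beside 0.05 for all genes. Klrk1 was at 106 and 94.0 CPM (1571 and 2302 UMIs, -0.17) and Klrb1b at 53.5 and 43.2 CPM (794 and 1058 UMIs, -0.31), the small side of the range. Klrc1 was at 8.29 and 3.72 CPM (123 and 91 UMIs, -1.16, -1.56 to -0.75) and Klrb1f at 8.63 and 6.29 CPM (128 and 154 UMIs, -0.46, -0.80 to -0.11).

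Some Ly49 transcripts of this gate came from a few cells with Ncr1 transcripts. The Klra genes summed to 489 UMIs in oil and 928 in tamoxifen, of which 109 and 584 were Klra2, and the 37 oil and 25 tamoxifen cells with an Ncr1 transcript held 233 and 74 of them. Klra4 had 69 UMIs in 7 of 2072 oil cells, up to 27 in 1 cell, and 14 UMIs in 3 of 3513 tamoxifen cells. Its log2 ratio was -3.02, with a counting interval of -3.97 to -2.18 that takes no account of this clustering. Of those UMIs, 66 of 69 and 13 of 14 lay in the Ncr1-bearing cells. Klra8 (46 and 19 UMIs, -1.999) lay there with 45 and 9 UMIs, and Klri2 (63 and 38 UMIs, -1.45) with 45 and 6. In those Ncr1-bearing T-gate cells the family summed to 2794 and 2117 CPM and the Klra genes to 802 and 421 CPM, a ratio of -0.93, near that of the Ncr1 gate. Eomes was at 75.7 and 11.4 CPM and Gzma at 671 and 34.1 CPM in the same cells.

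In Cd4 T cells 8 members had at least 20 UMIs. Klrg1 was more than 2-fold lower in tamoxifen (2.12% of all genes) and Klra2 more than 2-fold higher (4.9%), and the members' median was 0.25, beside 0.07 for all genes. Klrk1 was at 89.5 and 94.3 CPM (241 and 430 UMIs, 0.08), and Klrd1 at 19.3 and 18.7 CPM.

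Klrg1, the inhibitory receptor of mature effector and tissue regulatory T cells, was lower in tamoxifen in the Cd4 and Cd8b1 T gates and in the T gate with none of the 3 transcripts. In T cells with several of these transcripts (21 and 155 cells) it had 2 UMIs in 1 cell and 20 in 8 cells, with the ratio at 0.80 (-1.24 to 3.94). Among Cd4 T cells it had 135 UMIs in 44 of 432 oil cells and 65 in 29 of 668 tamoxifen cells, 50.1 against 14.3 CPM, a log2 ratio of -1.81 (-2.26 to -1.38). After thinning, 20 of 398 (5.03%) and 8 of 622 (1.29%) held it, with 34 and 46 cells left out, beside 1 of 182 and 0 of 333 B cells. Thinned to 1000 UMIs the shares were 11 of 422 (2.61%) and 18 of 657 (2.74%), a log2 ratio of 0.07 (-1.0 to 1.14), so the difference in shares was not seen at that depth. Nor did the sexes share a direction. Female Cd4 T cells held 115 UMIs in oil and 39 in tamoxifen (-2.20, -2.77 to -1.67), whereas male ones held 0 in 22 oil cells, which allows up to 15.1 CPM, and 21 in 7 of 74 tamoxifen cells (41.5 CPM). In the Cd8b1 gate there were 18 UMIs in 9 cells and 4 UMIs in 4 cells (-3.10, -5.12 to -1.49), and in the T gate with none of the 3 transcripts 110 and 63 UMIs, 7.42 and 2.57 CPM (-1.53, -1.998 to -1.07). Thinned Cd8b1 T cells held it in 0.966% and 0.763%, a share ratio of -0.34 (-2.91 to 2.23). The summed level was thus lower in these 3 gates, in few cells and for Cd4 T cells in the female ones alone.

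Regulatory T cells, marked by Foxp3, held most of the Cd4 signal. Of 66 oil Foxp3-bearing Cd4 T cells, 31 carried 112 Klrg1 UMIs, up to 25 in 1 cell, and of 45 in tamoxifen, 15 carried 38. Levels among them were 228 and 114 CPM, a ratio of -0.998 (-1.57 to -0.46). The 6 alveolar macrophage markers summed to 32.5 CPM (2 of them at 0) and 2785 CPM (none at 0) in these Foxp3-bearing cells. Transcripts of another lineage were found in 3 and 7 of them. The part of this foreign RNA in the ratio was not tested. Cd4 T cells without Foxp3 had 23 and 27 UMIs, 10.5 and 6.39 CPM, a ratio of -0.71 (-1.57 to 0.16). Both are smaller than the ratio of the whole gate, and Foxp3-bearing cells were a smaller part of the tamoxifen gate.

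In the Il1rl1 gate 12 members had at least 20 UMIs. Klrg1, Klrb1c, Klre1 and Klrc2 were more than 2-fold lower in tamoxifen, where 4.37% of all genes were, and Klra2 more than 2-fold higher, where 3.39% were, with a members' median of 0.01 beside 0.04 for all genes. Klrb1c, Klre1 and Klrc2 had at most 18 UMIs in either library. Klrg1, which inflammatory group 2 innate lymphoid cells display, had 126 UMIs in 69 of 730 oil cells and 21 in 14 of 323 tamoxifen cells, 16.4 and 5.84 CPM (-1.49, -2.23 to -0.81). Among cells with Gata3 and outside the cDC2 gate (193 and 57 cells, chosen after the data were seen) it was at 86.8 CPM (85 UMIs in 45 cells) and 43.4 CPM (12 UMIs in 10 cells), a ratio of -1.0005 (-2.01 to -0.12). Without cells that held transcripts of another lineage the ratio of the gate was -0.43 (-1.20 to 0.26), which included equality. Such cells made up 57.5% of the oil and 73.1% of the tamoxifen gate. In cDC2 cells Klrg1 had 22 UMIs in oil and 0 in tamoxifen, at least 5.63-fold lower against 3 counts.

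**Figure D4:**
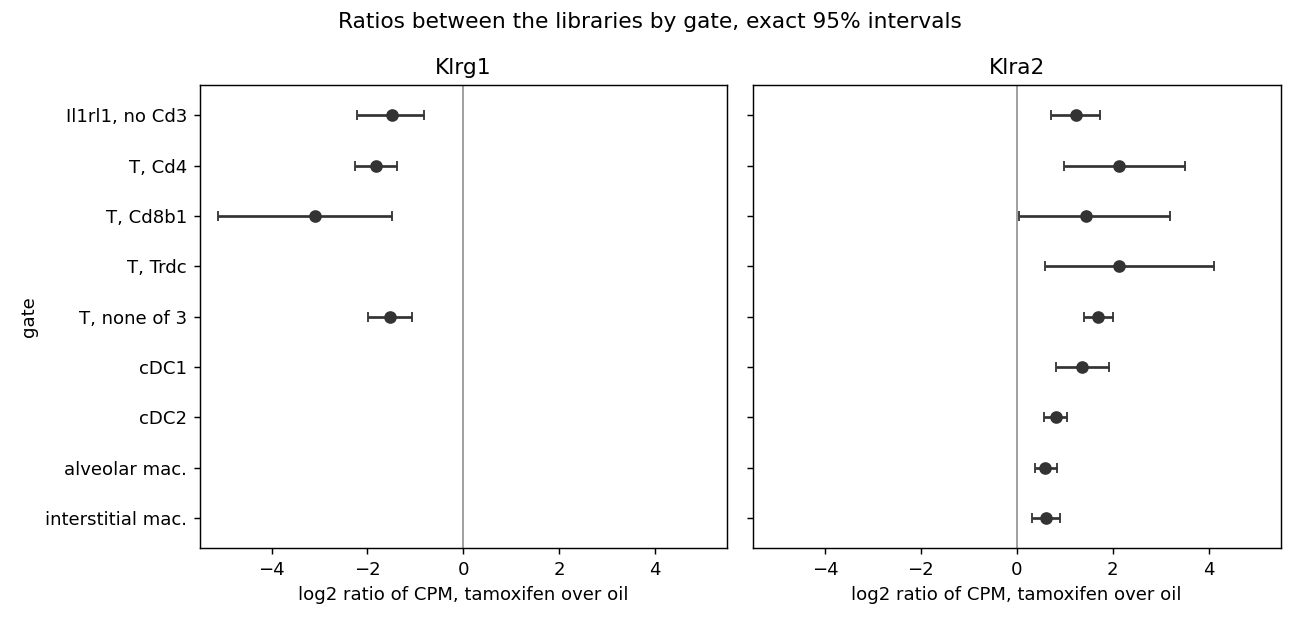
Log2 ratio of tamoxifen over oil CPM of Klrg1 and of Klra2 by gate, with exact 95% intervals (counting error only). Klrg1 lies below 0 in the Cd4 (-1.81) and Cd8b1 (-3.10) T gates and in T cells with none of the transcripts (-1.53), and Klra2 lies above 0 in each gate drawn, those with at least 20 UMIs.

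Dendritic cells held Klrb1b and Klrd1 far more often than B cells or alveolar macrophages did. Klrb1b in cDC1 had 1512 UMIs in 383 of 444 oil cells (86.3%) and 1682 in 450 of 530 tamoxifen cells (84.9%), 223 and 221 CPM, and the log2 ratio was -0.01 (-0.11 to 0.09). Thinned to 1500 UMIs, transcripts were found in 26.9% and 26.7% of cDC1, with 2 cells left out in each library, against 0.549% and 1.5% of B cells and 2.10% and 1.63% of alveolar macrophages. Its level in cDC1 was thus the same in both libraries within counting error. In cDC2 it was at 143 and 162 CPM (2599 and 2263 UMIs, 0.18), and in interstitial macrophages at 110 and 99.7 CPM (-0.14). The latter gate overlapped cDC2 in 725 and 566 cells, where Klrb1b was at 118 and 128 CPM, and outside that overlap it was at 45.0 and 42.9 CPM.

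Klrd1 was at 128 and 150 CPM in cDC1 (871 and 1139 UMIs, 0.22, 0.09 to 0.35) and at 102 and 109 CPM in cDC2 (0.09). After thinning it was found in 16.7% and 18.8% of cDC1, against 1.10% and 1.20% of B cells. Klrd1 was found in 277 of 383 oil cDC1 with Klrb1b (72.3%) and in 50.8% of the others, and in tamoxifen in 327 of 450 (72.7%) and 51.2%. Of its usual partners, Klrc1 had 2 and 1 UMIs in cDC1 and Klrc2 had 4 and 6. In interstitial macrophages Klrd1 was lower, at 22.96 and 16.1 CPM (180 and 129 UMIs, -0.51, -0.85 to -0.18). With cells thinned to 1000 UMIs, 16 of 821 and 10 of 789 held it, a share ratio of -0.62 (-1.75 to 0.51) that included equality. Of these cells 725 and 566 lay in the cDC2 gate as well, and the part of that overlap in the Klrd1 ratio was not tested.

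Klrk1 in cDC1 was at 31.5 CPM (214 UMIs) and 44.4 CPM (338 UMIs), a ratio of 0.49 (0.24 to 0.75). It was 0.76 in female and 0.08 in male cells. Klrg2 was highest in cDC1 at 7.81 and 7.09 CPM (53 and 54 UMIs). Klri1, the inhibitory partner of Klre1, was at 18.2 and 20.3 CPM in the Il1rl1 gate (140 and 73 UMIs), 13.5 and 12.1 CPM in cDC2 and 8.98 and 9.06 CPM in cDC1, and had 8 and 3 UMIs in the Ncr1 gate. Klri1 and Klri2 were thus highest in different gates, the one in the Il1rl1 gate and the other in the Ncr1 gate. Klra17 (Ly49Q), a Ly49 of myeloid and plasmacytoid cells, was at 2.26 and 3.66 CPM in cDC2 (41 and 51 UMIs, 0.70, 0.07 to 1.32). Klra5 (Ly49E) in cDC1 had 36 and 19 UMIs (-1.09, -1.97 to -0.25) and Klra3 there 44 and 43 (-0.20).

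Klra2 (Ly49B), an inhibitory Ly49 known from myeloid cells, stood apart from its relatives. In alveolar macrophages it had 178 UMIs in 113 of 247 oil cells (45.7%) and 1718 in 929 of 1632 tamoxifen cells (56.9%), 66.7 against 101 CPM, and the log2 ratio was 0.60 (0.38 to 0.83). Thinned to 1500 UMIs, cells with it made up 11.3% (27 of 238) and 13.8% (221 of 1598), with 9 and 34 cells left out, against 0 of 182 (up to 1.65%) and 0.601% of B cells. The ratio was 0.67 in female and 0.12 in male cells. The log2 ratio of the thinned shares was 0.29 (-0.26 to 0.83), which included equality, so the difference was clear of counting error only in the summed UMIs.

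It was also higher in tamoxifen in the other myeloid gates. Klra2 was at 19.8 and 30.2 CPM in interstitial macrophages (155 and 242 UMIs, 0.61, 0.31 to 0.91), at 13.5 and 23.7 CPM in cDC2 (245 and 330 UMIs, 0.81) and at 5.89 and 15.1 CPM in cDC1 (40 and 115 UMIs, 1.36). In cDC2 cells with no UMI of the 6 alveolar macrophage markers it was at 12.8 and 16.7 CPM (0.39, 0.01 to 0.75), in cDC1 without them at 5.498 and 8.19 CPM (28 and 34 UMIs, 0.57, -0.19 to 1.35, which included equality), and in interstitial macrophages without them at 19.7 and 28.5 CPM (0.53, 0.14 to 0.92).

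In lymphocytes Klra2 was higher in tamoxifen together with alveolar macrophage transcripts. In the T gate with none of the 3 transcripts it had 109 UMIs in oil and 584 in tamoxifen, 7.35 and 23.9 CPM (1.70, 1.40 to 2.01), while the 6 alveolar markers summed to 615 and 2257 CPM in the same cells, none of them at 0. Per 1000 UMIs of those markers it gave 12.0 and 10.6 UMIs. Among the 1699 and 2109 cells with no alveolar marker UMI, Klra2 had 48 and 54 UMIs, a ratio of 0.06, and without cells of mixed lineage it had 6 and 12. Elsewhere Klra2 gave, per 1000 marker UMIs, 109 and 9.25 in Cd8b1, 7.66 and 16.4 in Trdc and 13.1 and 11.9 in Cd4 T cells. The oil values there rest on only 5, 4 and 7 Klra2 UMIs. Klra2 gave 26.7 and 14.7 in the Il1rl1 gate (63 and 69 UMIs) and 23.3 and 22.1 in the Ncr1 gate (1 and 8 UMIs). Cells without marker UMIs had ratios of -1.65, 1.47, 0.85, 0.72 and 2.13 in these gates, in that order, each with an interval that included equality. The last of these rests on 1 and 2 Klra2 UMIs, and that of Trdc on 1 and 3. B cells held 0 and 23 Klra2 UMIs, at least 4.83-fold higher in tamoxifen against 3 counts, with alveolar markers at 68.4 CPM (2 of 6 at 0) and 525 CPM (none at 0). The 147 and 223 B cells with no alveolar marker UMI held 0 and 1 of these Klra2 UMIs. In alveolar macrophages, where the markers summed to 16315 and 11471 CPM, Klra2 gave 4.09 and 8.81 UMIs per 1000 marker UMIs. In interstitial macrophages it gave 206 and 242.

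**Figure D5:**
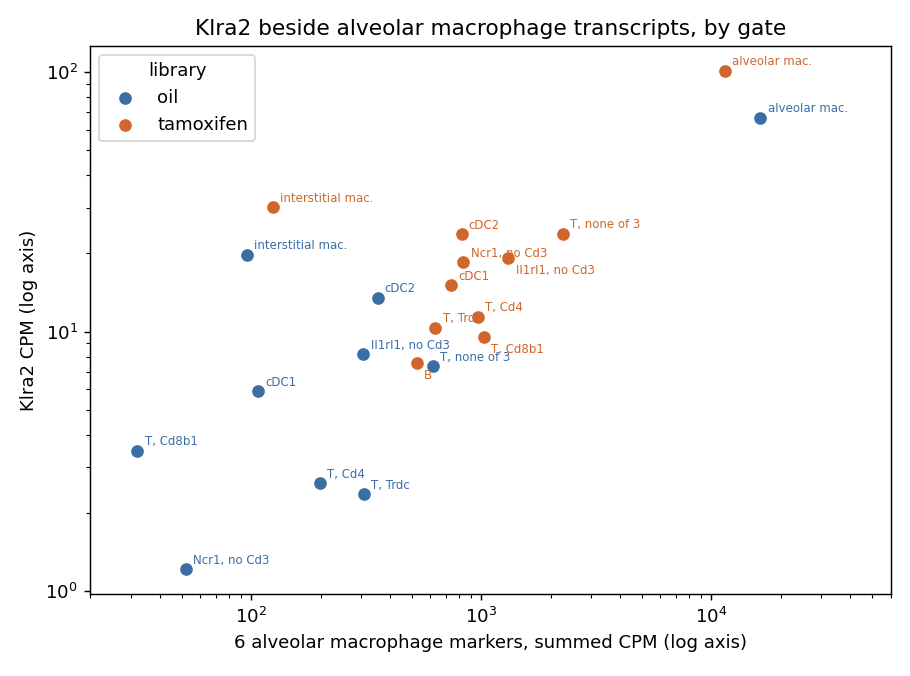
Klra2 level against the summed level of 6 alveolar macrophage markers, both as CPM on log axes, 1 point per gate and library; the oil B-cell gate had 0 Klra2 UMIs and is not drawn. From oil to tamoxifen the T gates lie higher on both axes, the T gate with none of the 3 transcripts from 615 and 7.35 CPM to 2257 and 23.9 CPM, while interstitial macrophages sit high for Klra2 (19.8 and 30.2 CPM) at low marker levels.

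No measured partner of the receptors was past 2-fold between libraries in the Ncr1 gate. Of 10 adaptors, kinases and phosphatases listed, 8 had at least 20 UMIs there. Their log2 ratios went both ways, from -0.34 to 0.82, with a median of 0.02. Hcst, the adaptor of Klrk1, was at 528 and 434 CPM, and Tyrobp, the adaptor of activating Ly49 receptors, at 864 and 1049 CPM. Fcer1g was at 1279.6 and 1335 CPM, and the kinases Zap70 and Syk at 54.5 and 46.1 and at 33.9 and 59.96 CPM. Of 22 listed ligands, 17 were in the gene list of the files and 5 had at least 20 UMIs in the Ncr1 gate. All 5 were lower in tamoxifen, none past 2-fold, from -0.51 to -0.165 with a median of -0.17. Qa-1 (H2-T23), the ligand of CD94 receptors, was at 251 and 224 CPM, and H2-D1, a class I ligand of Ly49 receptors, at 4030 and 2825 CPM. Clec2d, which Klrb1b binds, was at 118 and 96.9 CPM, and Clec2i, which Klrb1f binds, at 36.4 and 32.3 CPM. In the other 5 lymphocyte gates, 1 adaptor was past 2-fold lower in the Il1rl1 gate and 1 higher in the Cd4 gate, and among ligands 1 was lower in the Il1rl1 gate, 1 lower in the T gate with none of the transcripts and 2 higher in the Trdc gate.

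Some of these counts are uncertain because members resemble each other at the end that the method reads. Of the 50-base words in the last 500 bases of their transcripts, Klra9 shared 49.3% with another gene, Klrc1 44.8%, Klra3 36.0%, Klra7 24.7%, Klrc2 22.4% and Klra8 13.1%. In all, 15 members shared at least 1 such word and 11 shared none, Klra2, Klrk1, Klrd1, Klrg1, Klre1 and Klri2 among the latter. How the reads of shared words were divided among members was not tested.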

How the data were processed

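The files were 2 deposited matrices, with whole-number UMI counts for every gene in each barcode. The authors made these counts with Cell Ranger 5.0.1 on GRCm38 (mm10), per the submitters' processing notes, from 10x 3′ v3 libraries, per the labels' protocols. The gene annotation behind them was not given in the sources used here. Positions came from GENCODE M21 by gene identifier, and promoters from RefSeq.

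Barcodes with at least 300 genes and under 10% mitochondrial UMIs were kept. Cell gates were: cDC1, Xcr1 and Clec9a summed to at least 2 UMIs; cDC2, Mgl2 and Cd209a to at least 1; alveolar, Krt79, Fabp1 and Marco to at least 3; interstitial, C1qa, C1qb and C1qc to at least 20 with fewer than 3 alveolar UMIs; B, Cd79a and Ms4a1 to at least 2, all without Cd3 or Ncr1 UMIs. Gates other than the T gates may overlap. No doublet caller was run. Instead, cells with at least 5 UMIs of 8 other-lineage genes (Lyz2, C1qa, C1qb, C1qc, Krt79, Fabp1, Cd79a, Ms4a1) were left out of lymphocyte gates as an alternative.

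UMIs were summed per gate and library, without length correction, and divided by the UMIs of the gate (CPM). Ratios of levels carry exact Poisson and shares exact Clopper-Pearson 95% intervals, for counting error only. Ratios of shares carry approximate 95% intervals from both binomials (delta method on the log scale). Thinning drew 1500 UMIs per cell without replacement. Genes with at least 20 UMIs over both libraries counted as measured, and past 2-fold refers to the ratio alone, whatever its interval. Members with at least 20 UMIs over both libraries in 1 gate or more were described. Female and male cells were told apart by Xist and by 4 Y-linked genes. The members, gates and lists were chosen with earlier results of these data known. Ratios and thinning were tested on simulated counts. Python 3.11.15, numpy 2.4.6, scipy 1.17.1, pandas 2.3.3 and matplotlib 3.10.9 were used.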

Additional observations from a re-analysis of the deposited data

Results flagged for a closer look

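Some members had ratios of opposite sign, with intervals clear of 0, in 2 gates. The log2 ratio of tamoxifen over oil of Klrb1b was -0.40 in the Ncr1 gate and 0.34 in the Il1rl1 gate, but -0.13 in the latter without cells of other lineages, so the opposite sign did not hold there. That of Klrd1 was -0.51 in interstitial macrophages and 0.22 in cDC1, the latter -0.20 when divided by the UMIs of the library. The interstitial gate lay mostly inside the cDC2 gate, more so in oil, and the part of that overlap was not tested. Klrk1 stood at -0.66 in the Il1rl1 gate and 0.49 in cDC1, and Klrc1 at -1.16 in the T gate without Cd4, Cd8b1 or Trdc and 0.77 in the Trdc T gate. Klrb1b also went opposite ways in female and male cells of 2 T gates. Among Cd4 T cells the ratio was 0.88 in female cells (22 and 63 UMIs) and -2.45 in male cells (15 and 7 UMIs). Among Trdc T cells it was -0.99 in female cells (71 and 51 UMIs) and 1.84 in male cells (5 and 17 UMIs). Klrg1 in Cd4 T cells was lower with tamoxifen in female cells (115 and 39 UMIs, -2.20) and higher in male cells (0 and 21 UMIs). With 1 library per group, none of these differences was tested.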

How the results depend on the processing

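Of 149 alternatives to 16 leading values, 112 stayed within the counting interval, 36 moved outside it and 1 turned the direction. Of 276 for 33 other values, 209 stayed, 59 moved and 8 turned. In female cells alone the summed Klra ratio of the Ncr1 gate was -1.37, its thinned share ratio -1.37, Klrg1 in the Il1rl1 gate -4.31, Klrb1f in T cells with none of the 3 transcripts -0.91, Klra4 there -6.64, and 7 members were lower in the Ncr1 gate. In male cells summed Klra was -0.35, Klrc1 in Cd8b1 T cells -1.46, Klrb1c in the Ncr1 gate 0.40, Klrb1f 0.14, Klra2 in alveolar macrophages 0.12 and in T cells 0.014, Klrg1 in T cells -0.55, and Klra9 in the Ncr1 gate 0.14.

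Divided by the UMIs of the whole library, which lets the number of cells in a gate count, summed Klra was -2.29, Klrg1 in the Il1rl1 gate -3.17, Klrd1 in Cd8b1 T cells 0.12, Klrk1 there -0.20, Klrb1c in the Ncr1 gate -1.48, Klra2 in alveolar macrophages 2.68, and 15 members were lower in the Ncr1 gate. On that scale Klrb1b in the Il1rl1 gate was -1.35, Klrd1 in cDC1 -0.20, and Klra2 -0.46 in the Il1rl1 gate and -0.16 in cDC2.

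Without other-lineage cells Klrg1 in the Il1rl1 gate was -0.43, Klrb1b there -0.13, Klrb1c in the Ncr1 gate 0.40 and Klra2 in T cells 0.49, and without alveolar marker UMIs the last was 0.059. Without cells holding T-cell receptor transcripts, 28 and 12 Ncr1-gate cells remained: summed Klra was -2.37, Klrb1c -1.26, and 6 members were lower. Opening the gate with 2 Ncr1 UMIs gave Klrb1c 0.49 and 1 member lower, and counting genes from 1 UMI gave 4 lower and 2 higher. In NK-marked cells, only 5 of them in tamoxifen, Klrb1c was -1.72 and 9 members were lower; in ILC1-marked cells Klrb1c was 0.57, Klre1 0.15, Klrk1 0.15, and 0 members were lower. Klrg1 in Cd4 T cells was -0.998 with and -0.71 without Foxp3. Alternatives by alveolar markers, Foxp3 and parts of the Il1rl1 gate were chosen after seeing the data. The cause was not tested.

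No paired analysis was possible because each group has 1 library, and leaving 1 out was not possible either. Depth limits single Ly49 genes, since few cells carry them and their UMIs are not independent.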
